A study of Mus musculus with 8 samples.

Results

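The steroid-metabolising enzymes of liver were examined as a set of 10 genes given by name. The rule for membership used no measured value, but the set was proposed with earlier results of these data known. They were Hsd3b2, Hsd3b3, Hsd3b5, Hsd3b7, Hsd11b1, Akr1c6, Akr1d1, Srd5a1, Hsd17b2 and Hsd17b6. Of these 10 genes, 9 were measured, among 19938 genes in all, each by 1 probe set that the array's annotation gives to that gene alone. Srd5a1, which encodes a steroid 5α-reductase, had no such probe set and was not analysed here. Messenger RNA was measured on Affymetrix Mouse Gene 1.0 ST arrays in livers of 8-week-old male littermates on a C57Bl/6 background. In 4 samples Hmgb1, the gene of an abundant chromatin protein, had been deleted in mice with floxed Hmgb1 alleles by Albumin-Cre, a recombinase whose promoter is active in hepatocytes. The other 4 samples were livers of Hmgb1 floxed mice, whose titles name no Cre. Cre itself and the loss of Hmgb1 therefore cannot be told apart.

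The labels disagree on tissue and strain, since the tissue characteristic reads liver stellate cells and the strain one Balb/c. Alb, the gene of the hepatocyte product albumin, was bright on all 8 arrays, with log2 intensities from 13.26 to 14.03. Separate animals are not stated for the arrays, and a p-value here reflects only how these arrays vary, which may be technical. In bulk liver, fewer cells of a type and less RNA per cell cannot be told apart, and a hepatocyte Cre leaves Hmgb1 in the other liver cells.

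Steroids are inactivated, reactivated and turned into bile acids in hepatocytes by pairs of dehydrogenases and reductases that act on fixed positions of the ring system. The 3β-hydroxysteroid dehydrogenases act at carbon 3, and in mouse liver Hsd3b2 and Hsd3b3 encode dehydrogenase and isomerase forms, while Hsd3b5 encodes a form of male liver that acts as a 3-ketosteroid reductase. Akr1c6 and Hsd17b2 encode 17β-hydroxysteroid dehydrogenases that work in opposite directions, since in mouse Akr1c6 reduces androstenedione to testosterone and Hsd17b2 oxidises testosterone and oestradiol. Hsd17b6 oxidises 3α-hydroxysteroids such as androstanediol. Hsd11b1 regenerates active glucocorticoid, Akr1d1 is the 5β-reductase of bile acid and steroid hormone metabolism, and Hsd3b7 acts on hydroxylated sterols early in bile acid synthesis.

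The promoters of the Hsd3b cluster are shown because fold changes of neighbouring genes in it lay apart, from −0.49 for Hsd3b5 to 0.19 for Hsd3b2. On chromosome 3, RefSeq places the protein-coding members in the order Hsd3b4, Gm10681, Hsd3b5, Hsd3b2, Hsd3b3, Hsd3b6 and Hsd3b1. The 250 bases before the RefSeq start of 3 of them follow, on build GRCm38.p6, minus strand, 5′ to 3′. Capitals mark runs of at least 10 bases that Hsd3b5 and Hsd3b3 have in common.
Hsd3b5, chr3:98645535-98645784: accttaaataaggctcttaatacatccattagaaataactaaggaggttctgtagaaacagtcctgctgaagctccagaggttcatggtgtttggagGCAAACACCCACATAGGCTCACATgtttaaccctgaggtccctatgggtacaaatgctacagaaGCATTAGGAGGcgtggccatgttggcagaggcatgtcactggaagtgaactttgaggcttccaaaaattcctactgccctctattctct
Hsd3b3, chr3:98763129-98763378: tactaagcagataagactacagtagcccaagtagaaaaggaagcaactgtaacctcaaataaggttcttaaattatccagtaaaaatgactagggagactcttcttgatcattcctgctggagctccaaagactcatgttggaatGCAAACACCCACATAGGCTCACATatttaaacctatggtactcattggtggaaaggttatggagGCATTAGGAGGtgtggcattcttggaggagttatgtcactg
Hsd3b2, chr3:98724544-98724793: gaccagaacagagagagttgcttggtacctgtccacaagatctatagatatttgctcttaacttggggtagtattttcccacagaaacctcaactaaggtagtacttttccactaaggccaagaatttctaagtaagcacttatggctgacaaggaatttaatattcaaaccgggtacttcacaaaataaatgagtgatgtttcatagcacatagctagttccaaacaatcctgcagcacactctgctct
Hsd3b5 and Hsd3b3 had 2 runs in common, the longest of 24 bases, and Hsd3b2 had 0 runs of that length in common with Hsd3b5. In local alignments, 75.5% of 204 columns were identical between Hsd3b5 and Hsd3b3, against 55.1% of 254 columns between Hsd3b5 and Hsd3b2. The letters CAAAGTNCA, a core of HNF4-type sites chosen after these sequences had been read, were searched on both strands of windows reaching from 250 bases before to 50 bases after the start. They were found 44 bases before the start in Hsd3b5 and 5 bases after it in Hsd3b3 (4 bases after it in the other window of Hsd3b3). Of 32851 promoter windows, 1.41% hold them. That share is no test of these matches, since the letters were chosen after reading and the promoters of Hsd3b5 and Hsd3b3 are alike. The STAT5-type letters TTCNNNGAA, which 8.30% of windows hold, were found in Hsd3b7 and in no other of the 9 enzymes with a window. A match describes letters and not a bound site, and Hsd17b2 had no window in the table.

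The deleted gene was read first. Hmgb1 had log2 intensities of 4.91, 4.20, 4.53 and 4.74 in the deleted livers, against 5.35, 5.42, 5.45 and 5.78 in the floxed controls. The groups did not overlap, and Hmgb1 fell by 0.91 on the log2 scale (SE 0.14, limma adjusted p = 0.0216). All 8 values lay below the lowest array median of 6.08, and signal over background was not analysed here, so the size of this fall is uncertain. Leaving out deleted 3, deleted 4, control 3 or control 4 raised that adjusted p above the threshold, to 0.0730, 0.0687, 0.0561 and 0.0797, and so did testing all probe sets (0.0652). The position of this probe set relative to the floxed exons was not analysed here. Array medians were 6.08 to 6.22 and correlations between arrays 0.983 to 0.996. Floxed control 1 stood apart, with a weight of 0.254 where limma estimated array weights, against up to 2.58 for control 4, so the fold change of each enzyme is given with and without it.

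Among the 9 enzymes, 0 passed the threshold of 0.05 on the adjusted p, while 0.692% of all 19938 genes did (138 genes), 0.396% lower and 0.296% higher. Without adjustment 3 of the 9 had p under 0.05, namely Hsd3b5, Akr1c6 and Hsd17b2, against 9.46% of all genes. In 2 of the 9, Akr1c6 and Hsd17b2, the values of the deleted livers and the controls did not overlap, against 5.57% of all genes. Akr1c6 was lower without overlap, as were 2.3% of all genes, and Hsd17b2 was higher without overlap, as were 3.28%. Fold changes, given throughout as deleted minus control on the log2 scale, were below 0 for 7 enzymes and above 0 for 2, while 49.8% of all genes were below 0. Their median was −0.093, and that of all genes was 0. The 95% interval stayed within a 1.5-fold change either way for 8 of the 9 enzymes and within 2-fold for all 9. The interval that reached past 1.5-fold was that of Hsd3b5. All array values of the 9 enzymes lay above the highest array median.

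**Figure D1:**
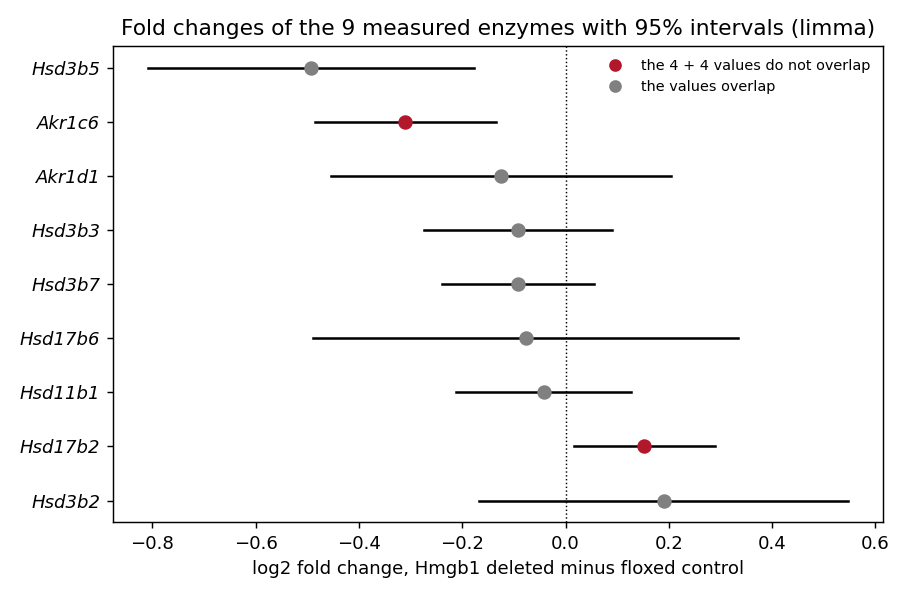
Points are log2 fold changes of the 9 measured enzymes, Hmgb1 deleted minus floxed control, with 95% intervals from limma (4 arrays against 4). Hsd3b5 at −0.49 and Akr1c6 at −0.31 lie farthest to the left, and red points mark the 2 enzymes whose array values do not overlap between groups.

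Within the Hsd3b cluster, the fold change of Hsd3b5 lay below those of Hsd3b2 and Hsd3b3 by value, though its 95% interval overlapped that of Hsd3b3. Hsd3b5 had log2 intensities of 11.31, 10.82, 11.02 and 11.22 in the deleted livers, against 11.17, 11.81, 11.65 and 11.71 in the controls. Control 1 lay inside the range of the deleted livers, and the other 3 controls lay above all of it. The means were 11.09 ± 0.22 in deleted livers and 11.585 ± 0.28 in controls (SD, n = 4 each), a fold change of −0.49 (95% interval −0.81 to −0.18, limma adjusted p = 0.205). On the linear scale this is 71.1% of the control level. The exact 2-sided permutation p was 0.0857, where 4 arrays against 4 cannot give less than 0.0286. Without control 1 the fold change was −0.63 (SE 0.11) and Hsd3b5 passed the threshold (limma adjusted p = 0.0181), in a comparison that called 1.61% of all genes. With array weights it was −0.67 and also passed (limma adjusted p = 0.00532).

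A pair of probe sets with identical values is annotated to Gm10681, Hsd3b5 and Hsd3b4 together and so names no single gene. They read 7.78, 7.57, 7.69 and 7.49 in deleted livers and 7.60, 8.02, 7.87 and 8.09 in controls. Here too control 1 was the one control inside the range of the deleted livers. The fold change of −0.26 did not pass (SE 0.11, limma adjusted p = 0.535 over all probe sets). Because these genes are close copies, part of the Hsd3b5 signal could be read from its neighbours, and that was not tested.

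Hsd3b2, which lies next to Hsd3b5, had log2 intensities of 8.51, 8.90, 8.48 and 8.57 in deleted livers, against 7.88, 8.59, 8.63 and 8.60 in controls. Control 1 was far below the other controls, which lay within the range of the deleted livers. The fold change was 0.19 (95% interval −0.17 to 0.55, limma adjusted p = 0.889) and came to 0.0083 without control 1. Hsd3b3 read 11.24, 11.21, 10.98 and 11.11 in deleted livers, against 11.04, 11.28, 11.32 and 11.27 in controls. Its groups overlapped through control 1, the lowest control, and its fold change was −0.093 (95% interval −0.27 to 0.089, limma adjusted p = 0.900). That value was −0.155 without control 1 and −0.041 without deleted 3.

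The enzymes of the 17β and 3α positions came next. Akr1c6 had log2 intensities of 12.11, 12.16, 11.92 and 11.89 in deleted livers, against 12.20, 12.34, 12.41 and 12.37 in controls. Every deleted liver was below every control, with control 1 the nearest. The means were 12.02 ± 0.13 in deleted livers and 12.33 ± 0.091 in controls (SD, n = 4 each), and the exact permutation p was 0.0286, the smallest that 4 against 4 can give. The fold change of −0.31 (95% interval −0.49 to −0.13), or 80.7% of the control level, did not pass over all genes (limma adjusted p = 0.141). It passed with array weights (−0.33, limma adjusted p = 0.0243) and was −0.35 without control 1 (limma adjusted p = 0.0542). With quantile normalization again it shrank to −0.21 (limma adjusted p = 0.125), the smallest size among the 17 alternatives.

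Hsd17b2, whose product works in the opposite direction, had log2 intensities of 11.97, 11.87, 11.89 and 11.79 in deleted livers, against 11.77, 11.65, 11.76 and 11.73 in controls. Every deleted liver was above every control, though deleted 4 and control 1 nearly met. The means were 11.88 ± 0.074 in deleted livers and 11.73 ± 0.054 in controls (SD, n = 4 each), with an exact permutation p of 0.0286. The fold change was 0.15 (95% interval 0.016 to 0.29, limma adjusted p = 0.439), or 111% of the control level. It stayed between 0.12 and 0.23 under the 17 alternatives, with adjusted p between 0.104 and 0.794.

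Hsd17b6 varied more within the groups than between them. It read 11.32, 11.79, 10.86 and 11.24 in deleted livers, against 10.95, 11.58, 11.54 and 11.45 in controls. Deleted 2 was the highest array and deleted 3 the lowest, so that the range of the controls lay inside that of the deleted livers. The fold change was −0.078 (95% interval −0.49 to 0.33, limma adjusted p = 0.989), and it was 0.070 without deleted 3, −0.24 without deleted 2 and −0.011 to −0.22 without single controls, the last without control 1.

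**Figure D2:**
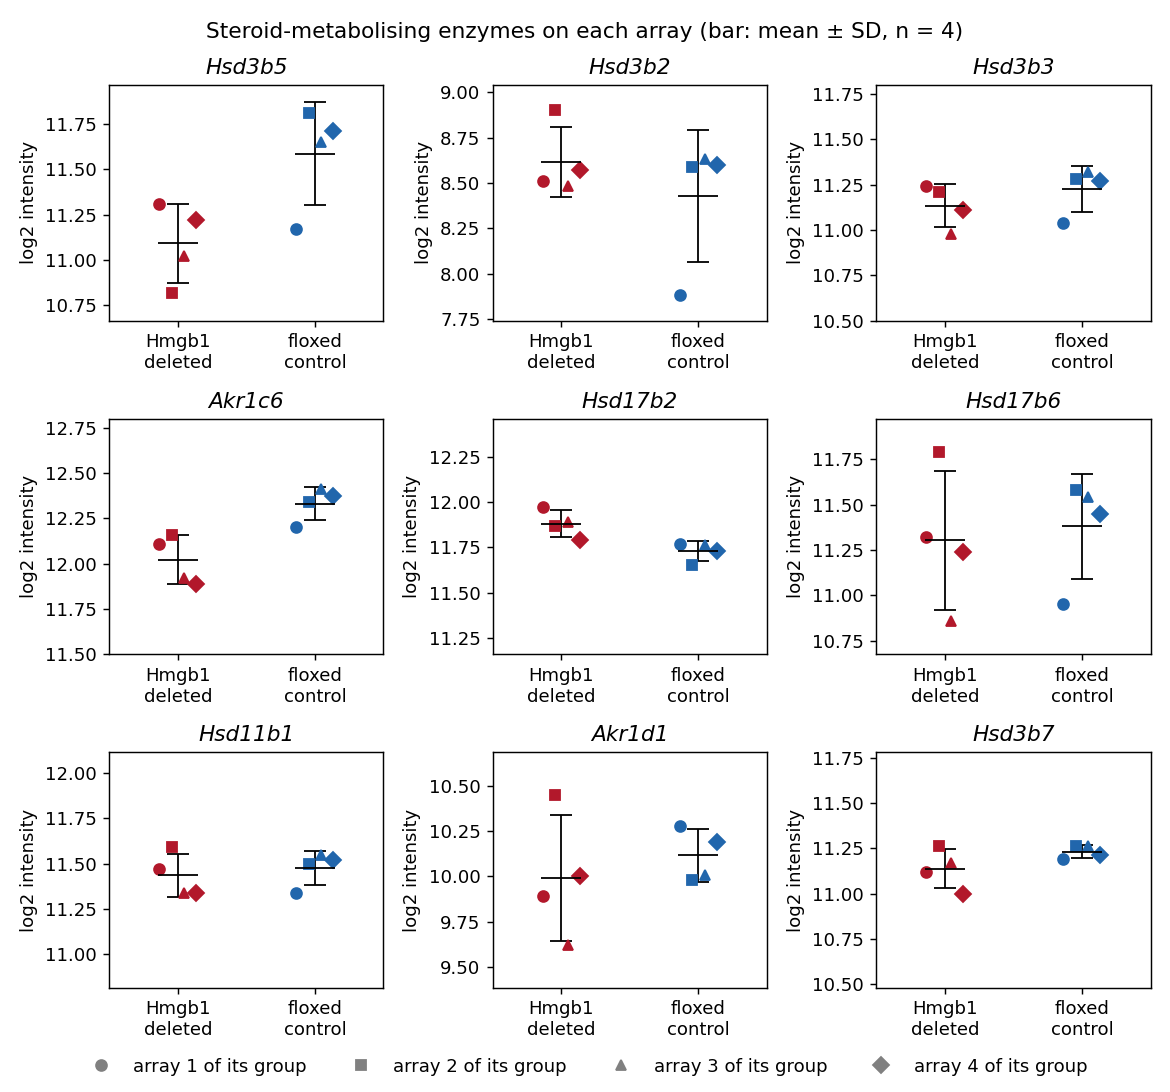
Each panel plots log2 intensity for 1 enzyme on each array, Hmgb1 deleted at left and floxed control at right, with marker shape for the array number and bars for mean ± SD (n = 4). Every panel spans at least 1.25 log2 units so that spreads can be compared. Control 1, the blue circle, is the lowest control for 7 of 9 enzymes.

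The glucocorticoid and bile acid enzymes, Hsd11b1, Akr1d1 and Hsd3b7, showed smaller shifts than Hsd3b5, Akr1c6 and Hsd17b2. Hsd11b1 had log2 intensities of 11.47, 11.59, 11.34 and 11.34 in deleted livers, against 11.34, 11.50, 11.55 and 11.52 in controls. The groups overlapped over almost their whole range, with a fold change of −0.043 (95% interval −0.21 to 0.13, limma adjusted p = 0.973). It lay between −0.094 and −0.011 with single arrays left out, and its sign turned, to 0.018, when quantile normalization was applied again. Akr1d1 had 9.89, 10.45, 9.62 and 10 in deleted livers and 10.28, 9.98, 10.01 and 10.19 in controls. The controls lay inside the range of the deleted livers, which deleted 2 and deleted 3 stretched. Its fold change of −0.125 (95% interval −0.45 to 0.20, limma adjusted p = 0.953) was −0.28 without deleted 2 and −0.0017 without deleted 3. Hsd3b7 had 11.12, 11.26, 11.17 and 11.00 in deleted livers and 11.19, 11.26, 11.26 and 11.21 in controls. The 3 lowest values were those of deleted 4, deleted 1 and deleted 3, and the fold change was −0.093 (95% interval −0.24 to 0.055, limma adjusted p = 0.830). It came to −0.047 without deleted 4 and −0.017 with quantile normalization again.

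Single arrays moved several enzymes together. Control 1 was the lowest of the 4 controls for 7 of the 9 enzymes and the highest for the remaining 2, Akr1d1 and Hsd17b2. Without it the fold changes were −0.088 for Hsd11b1, −0.11 for Hsd3b7, −0.070 for Akr1d1 and 0.17 for Hsd17b2, beside those given above for the other enzymes. Deleted 2 was the highest deleted liver for 6 enzymes and the lowest for 1, Hsd3b5. Deleted 3 was the lowest of its group for 4 enzymes, and deleted 4 for 3, leaving ties out. Over the 8 arrays, Hsd3b2 (1.02), Hsd3b5 (0.99) and Hsd17b6 (0.93) had the widest ranges, in log2 units. The narrowest were those of Hsd11b1 (0.25), Hsd3b7 (0.26) and Hsd17b2 (0.32).

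**Figure D3:**
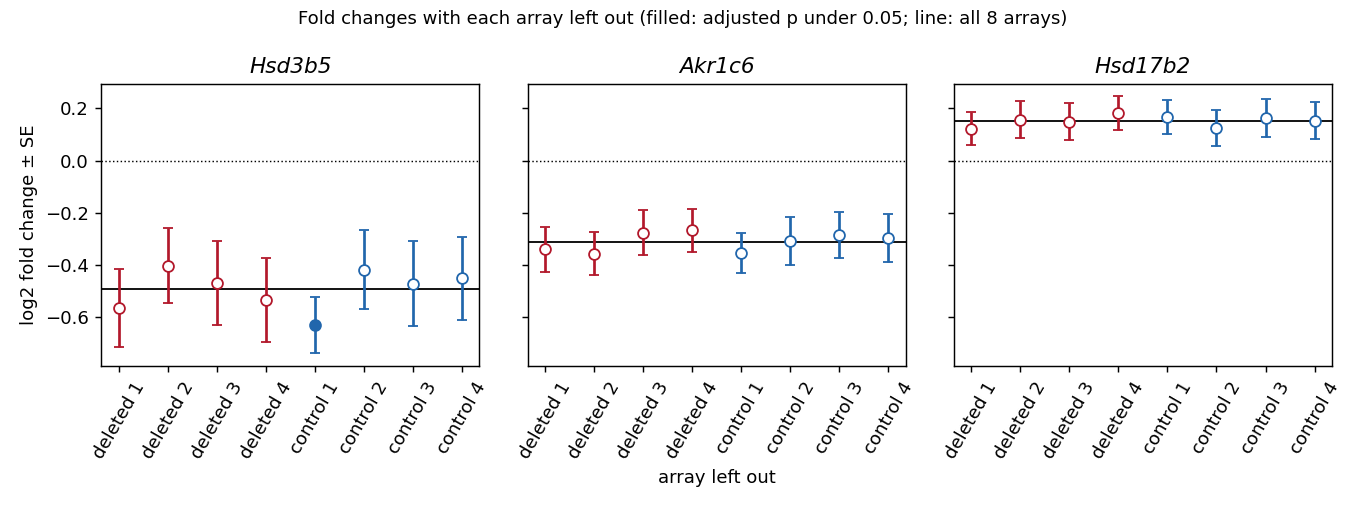
Points are log2 fold changes (deleted minus control) with SE when the array named on the x axis is left out, for the 3 enzymes with unadjusted p under 0.05, and the solid line is the value from all 8 arrays. Hsd3b5 lies between −0.63 and −0.40 and is filled, meaning an adjusted p under 0.05, only without control 1. Akr1c6 lies between −0.36 and −0.27, and Hsd17b2 between 0.12 and 0.18.

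Because arrays moved several enzymes at once, each pair of enzymes was also compared within arrays, a comparison added after the values had been seen. The difference of log2 intensities of 2 probe sets says nothing of which gene is more abundant, and only its change between groups is read. Of 36 pairs, 8 did not overlap between the groups, against 6.58% of all pairs of the 19938 genes, each with an exact 2-sided permutation p of 0.0286 and 0.129 after adjustment over the 36 pairs. Of these 8 pairs, 5 held Akr1c6, 2 held Hsd3b5 and 2 held Hsd17b2, the pair of Akr1c6 and Hsd17b2 being counted under both. Akr1c6 and Hsd17b2 were already free of overlap as single genes, in opposite directions, so that their pair could not overlap. Pairs that hold the same enzyme are not independent.

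Hsd3b5 minus its neighbour Hsd3b2 was 2.80, 1.92, 2.54 and 2.65 in deleted livers, against 3.29, 3.22, 3.02 and 3.11 in controls. Control 1, which overlapped for Hsd3b5 alone, was the highest control here, where its low Hsd3b2 value of 7.88 was subtracted. The difference was lower by 0.68 in deleted livers (mean change −0.68, or −0.79 to −0.50 leaving out each array). Hsd3b5 minus Hsd3b3 was 0.07, −0.39, 0.04 and 0.11 in deleted livers, against 0.13, 0.53, 0.33 and 0.44 in controls. The gap between the groups was narrow, at deleted 4 and control 1, and the mean change was −0.40. These were the only 2 of the 8 pairs with Hsd3b5 that did not overlap. For Hsd3b5 minus Hsd3b7 and minus Hsd11b1, control 1 (−0.02 and −0.17) lay inside the range of the deleted livers. The remaining pair of the genes whose promoters are printed, Hsd3b2 minus Hsd3b3, overlapped between the groups, with a mean change of 0.28 (exact permutation p = 0.114).

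Akr1c6 minus Hsd11b1 was even within each group, at 0.64, 0.57, 0.58 and 0.55 in deleted livers, against 0.86, 0.84, 0.86 and 0.85 in controls. The mean change of −0.27 was many times the spread of the controls (SD 0.039 in deleted livers and 0.0096 in controls, n = 4 each). Akr1c6 minus Hsd17b2, the reductase against the oxidase of the 17β position, was 0.14, 0.29, 0.03 and 0.10 in deleted livers, against 0.43, 0.69, 0.65 and 0.64 in controls. All 4 deleted livers were below all 4 controls, with a mean change of −0.46 (−0.52 to −0.43 leaving out each array).

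**Figure D4:**
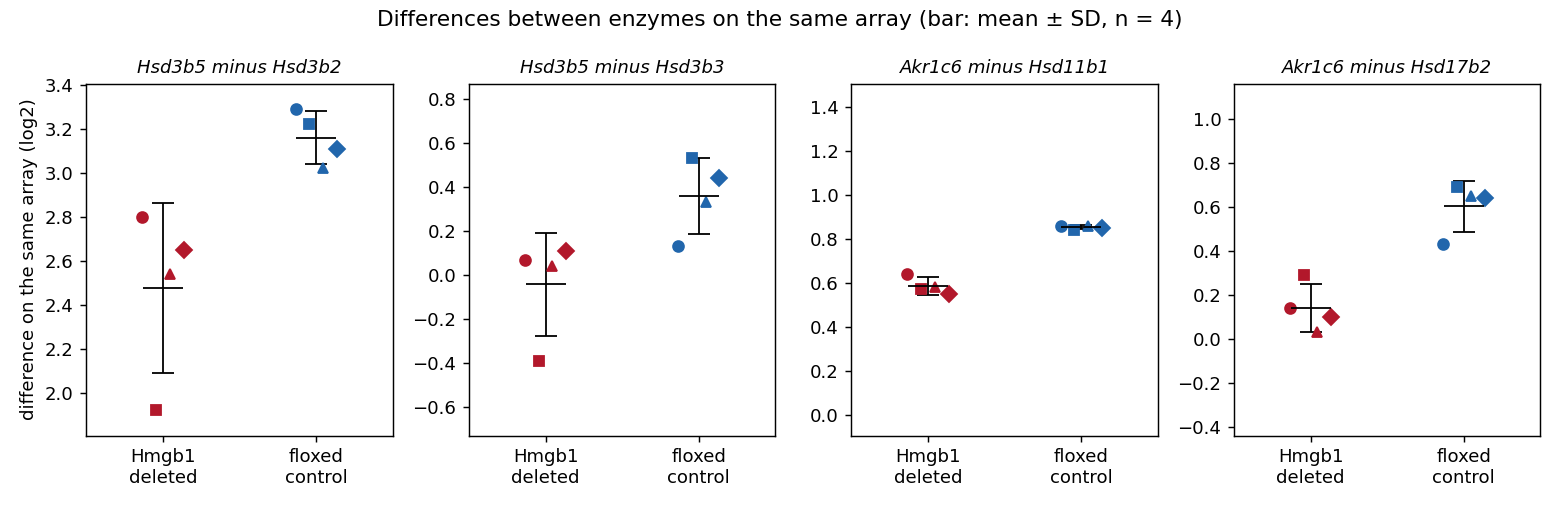
Each panel plots the difference of log2 intensities between 2 enzymes on the same array, Hmgb1 deleted at left and floxed control at right, with bars for mean ± SD (n = 4) and marker shapes for array numbers as for the single enzymes. All 4 pairs belong to the 8 of 36 whose groups did not overlap, so the separation follows from which pairs are drawn. In all 4 panels the deleted livers lie below the controls, and Akr1c6 minus Hsd11b1 has the least spread.

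Hsd3b2 was the one enzyme with a range of at least 1 log2 unit, and the genes with the most similar profile over the 8 arrays were taken from all genes. The 5 nearest by root mean square distance between profiles centred on their means were Tcea3 (0.058 log2 units), Rras2 (0.069), Ces1e (0.072), Tspan33 (0.075) and Tuba1a (0.084). Like Hsd3b2, all 5 had their lowest control value on control 1, apart from the other 3, as at 7.34 against 7.90 to 8.02 for Rras2. Their fold changes, 0.0975 to 0.255 with all arrays, lay between −0.045 and 0.081 without control 1. With all arrays, none of the 5 passed the threshold, with limma adjusted p of at least 0.731.

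Other genes of steroid metabolism were read from 10 lists, which held 79 genes beyond the 10 enzymes, 65 of them measured. Of the 65, 0 passed the threshold, 39 were lower and 26 higher by value, and the median fold change was −0.0375. Without adjustment 14 of the 65 (21.5%) had p under 0.05, 9 lower and 5 higher, against 9.46% of all genes. Values did not overlap between groups for 5 of them (7.69%), against 5.57% of all genes, namely Cyp1a2, Cyp2d9, Cyp7b1, Cyb5a and Akr1cl. Of these, Akr1cl lay below all array medians, at 4.67 to 4.80. Array weights called 6 of the 65, Akr1c19, Cyp1a2, Cyp2d9, Cyp7b1, Ugt2b1 and Cyp8b1, in a comparison that called 2.64% of all genes. Leaving out control 1 called Akr1c19, Ugt2b1 and Cyp8b1, where 1.61% of all genes were called.

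**Figure D5:**
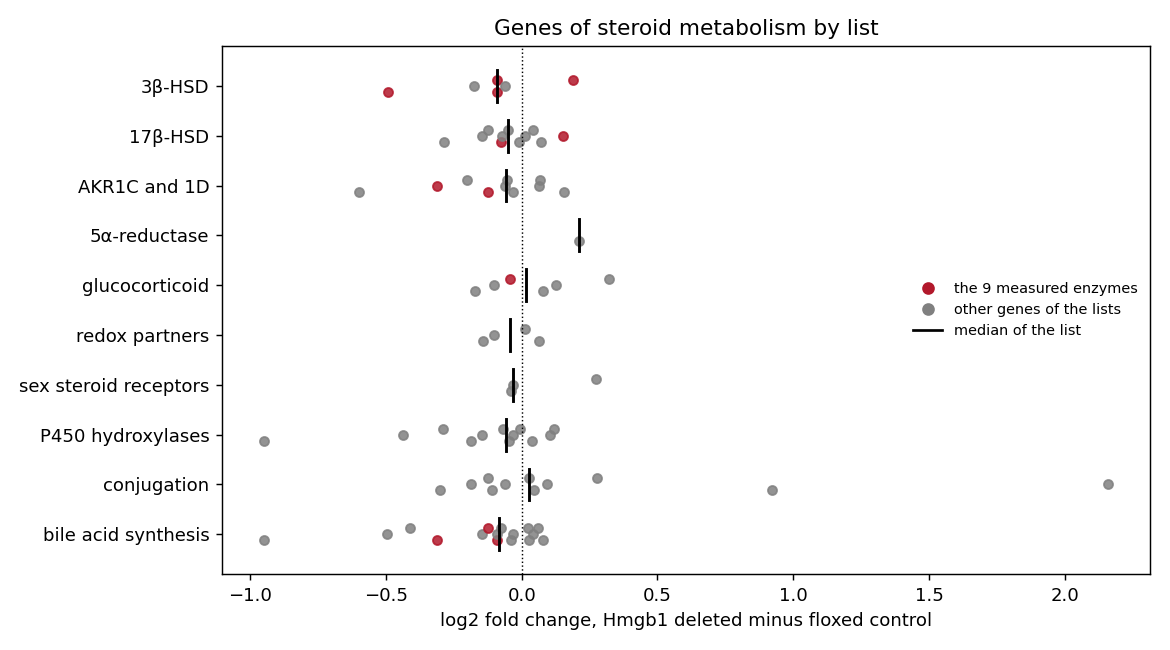
Each point is the log2 fold change (deleted minus control) of 1 measured gene, by list, with the 9 enzymes in red and a bar at the list's median. A gene in several lists is drawn in each. Most points lie within 0.5 of 0, with Cyp7b1 at −0.95 and Sult1e1 at 2.16 the outermost, and 0 genes passed the threshold.

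Of the dehydrogenase and reductase families, 6 of 9 genes of the 3β family were measured (1 higher and 5 lower by value, median −0.093), of which Hsd3b1 and Hsd3b6 lay below all array medians. In the 17β family, 11 of 12 genes were measured (4 higher and 7 lower, median −0.050), and Hsd17b11, a lipid droplet enzyme, had 11.07, 11.40, 11.04 and 11.10 in deleted livers against 11.22, 11.53, 11.53 and 11.48 in controls. Its fold change was −0.29 (SE 0.098, limma adjusted p = 0.307), and the overlap came from deleted 2 and control 1. In the aldo-keto reductase 1C and 1D family, all 10 genes were measured (3 higher and 7 lower, median −0.056). Akr1c19, a relative of Akr1c6, had 8.03, 8.48, 7.92 and 8.31 in deleted livers, against 8.23, 8.84, 9.23 and 8.84 in controls. Its fold change was −0.60 (SE 0.19, limma adjusted p = 0.253), and −0.785 without control 1 (limma adjusted p = 0.0218). Of the 5α-reductases, which include the unmeasured Srd5a1, Srd5a3 alone was measured, at 8.47, 8.95, 8.65 and 8.68 in deleted livers and 8.19, 8.50, 8.56 and 8.65 in controls.

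Around Hsd11b1, all 6 genes of glucocorticoid activation, binding and receptors were measured (3 higher and 3 lower by value, median 0.0175). H6pd, which supplies the NADPH that Hsd11b1 uses, had a fold change of −0.10 (limma adjusted p = 0.791). Nr3c2, the mineralocorticoid receptor, which also binds glucocorticoid, had 6.66, 7.05, 6.92 and 7.07 in deleted livers, against 6.39, 6.65, 6.66 and 6.72 in controls. Its groups overlapped only through deleted 1, and the fold change of 0.32 did not pass (SE 0.10, limma adjusted p = 0.268). Of the redox partners 4 of 5 were measured (2 higher and 2 lower by value). Cyb5a, an electron donor to P450 enzymes, had no overlap, though deleted 2 at 12.54 and control 1 at 12.55 nearly met, with a fold change of −0.14 (limma adjusted p = 0.631). Of the sex steroid receptors 3 of 4 were measured, and Esr1, the oestrogen receptor α, had a fold change of 0.27 (SE 0.12, limma adjusted p = 0.498).

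Among 12 measured of 15 steroid-hydroxylating P450 genes, 3 were higher and 9 lower by value (median −0.059). Cyp7b1, the oxysterol and androgen 7α-hydroxylase, had 11.43, 9.89, 11.16 and 11.03 in deleted livers, against 11.62, 11.98, 11.88 and 11.82 in controls. All deleted livers were lower, deleted 2 by far the most, and the fold change of −0.95 (SE 0.26, limma adjusted p = 0.183) was −0.62 without it. Cyp2d9, a testosterone 16α-hydroxylase of male mouse liver, had 11.36, 10.87, 11.31 and 10.99 in deleted livers and 11.37, 11.65, 11.65 and 11.60 in controls. Here control 1 all but touched the deleted livers, and the fold change was −0.435 (SE 0.11, limma adjusted p = 0.153). Cyp1a2, which hydroxylates oestrogens, had a fold change of −0.29 (SE 0.069, limma adjusted p = 0.111).

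Of the 10 lists, conjugation had the widest span of fold changes, −0.30 to 2.16. Of 15 genes 11 were measured, 6 higher and 5 lower by value (median 0.0275). Sult1e1, the oestrogen sulphotransferase, had 8.54, 5.30, 4.44 and 7.57 in deleted livers, against 4.65, 4.10, 4.03 and 4.43 in controls. Deleted 1 and deleted 4 were far above every control, deleted 2 was less so, and deleted 3 lay among the controls, so that the fold change of 2.16 did not pass (SE 0.72, limma adjusted p = 0.298). All controls, deleted 2 and deleted 3 lay below the lowest array median of 6.08, and signal over background was not analysed here, so the size of this fold change is uncertain. Papss2, which makes the sulphate donor for such enzymes, had 11.18, 11.43, 11.26 and 11.04 in deleted livers, against 10.97, 10.82, 10.97 and 11.04 in controls (fold change 0.28, SE 0.087, limma adjusted p = 0.250). The groups met at deleted 4 and control 4. Ugt2b37, a glucuronosyltransferase, had 9.84, 8.36, 8.58 and 9.09 in deleted livers and 7.53, 8.17, 8.36 and 8.12 in controls. Its fold change of 0.92 (SE 0.28, limma adjusted p = 0.238) was 0.63 without deleted 1.

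Bile acid synthesis, the pathway of Hsd3b7 and Akr1d1, had all 16 genes measured, 5 higher and 11 lower by value (median −0.084). Cyp8b1, the sterol 12α-hydroxylase, had 11.47, 11.10, 11.16 and 11.25 in deleted livers, against 11.36, 11.72, 11.83 and 11.72 in controls. Control 1 lay below deleted 1 and above the other deleted livers, and the fold change was −0.41 (SE 0.11, limma adjusted p = 0.161), or −0.51 without control 1 (limma adjusted p = 0.0185). Cyp7a1, the rate-limiting enzyme, had a fold change of −0.09 (SE 0.22, limma adjusted p = 0.990).

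Hsd3b5 and Hsd3b2 belong to the genes that differ between male and female mouse livers under growth hormone. Of 16 male-biased genes listed, these included, 14 were measured, 4 higher and 10 lower by value (median −0.20). Susd4 fell by 1.78 on the log2 scale (SE 0.28, limma adjusted p = 0.0216), a call lost in 8 of 17 alternatives. Control 1 had the lowest control value for all 14 genes. Its list mean was 10.84, against 11.41 to 11.55 on the other controls and 10.73 to 11.15 in the deleted livers. Of the deleted livers, deleted 2 had the lowest mean. Of 18 female-biased genes 13 were measured, 6 higher and 7 lower by value (median −0.0025). Their mean was 6.48 on control 1, against 5.81 to 6.34 on the other controls. It was 6.46 on deleted 2, against 5.89 to 6.18 on the other deleted livers. The female-biased Cyp17a1, the 17α-hydroxylase of steroid synthesis, had 8.67, 8.47, 8.30 and 8.56 in deleted livers. In controls it spread over 11.39, 7.42, 8.21 and 10.32. Of 11 regulators of sex-dependent expression 10 were measured, and 0 passed. Ghr, the growth hormone receptor, was lower without overlap (fold change −0.25, SE 0.070, limma adjusted p = 0.189). Bcl6, a repressor in male liver, had 8.16, 7.25, 7.78 and 7.87 in deleted livers and 8.69, 7.84, 10.19 and 9.45 in controls (fold change −1.28, SE 0.41, limma adjusted p = 0.259).

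Markers of the cells in the tissue were read beside these values. Of 14 hepatocyte markers, all measured, 1 was higher and 13 lower by value (median −0.12), and 0 passed. Deleted 4 was the lowest deleted liver for all 14. Its mean was 12.64, against 12.96 to 13.03 on the other deleted livers and 13.00 to 13.05 in controls. The highest value of any probe set was also lowest on deleted 4, at 13.58 against 14.23 to 14.46 on the other arrays. Whether bright genes in general read lower on that array was not tested. With quantile normalization again, the fold change of Alb was 0.00047 and the median of the enzymes −0.017. Deleted 4 was also the lowest deleted liver for Akr1c6, Hsd17b2 and Hsd3b7, and without it the fold changes of Akr1c6 and Hsd17b2 were −0.27 and 0.18. Of 11 pericentral hepatocyte markers, all measured, 2 were higher and 9 lower by value (median −0.21), and 0 passed. Without adjustment 7 of the 11 had p under 0.05, against 9.46% of all genes. Their array means were 10.196 to 10.343 in deleted livers and 10.346 to 10.394 in controls, so that deleted 3 and control 1 nearly met. The 2 higher ones, Rhbg and Lgr5, had fold changes of 0.35 and 0.31 (limma adjusted p = 0.118 and 0.147). Of 7 measured periportal markers 2 were higher and 5 lower by value. Of 10 sinusoidal endothelial markers all were lower by value (median −0.21), with array means of 8.82 to 8.94 in deleted livers and 9.06 to 9.23 in controls. Clec4g was the 1 endothelial marker past the threshold (fold change −0.615, SE 0.076, limma adjusted p = 0.00628), a call lost when the mean of its probe sets was taken (−0.27, limma adjusted p = 0.121). Of 12 stellate cell markers, all measured, 4 were higher and 8 lower by value, with array means of 8.26 to 8.35 in deleted livers and 8.28 to 8.36 in controls. Of 7 measured erythroid markers 1 was higher and 6 lower by value, with fold changes from −0.545 to 0.18 (median −0.0975). Their array means were 7.33 to 7.45 in deleted livers and 7.54 to 7.67 in controls. Of 9 Kupffer cell markers, all measured, 6 were higher and 3 lower by value (median 0.045). The part of these marker shifts in the enzymes' values was not tested.

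Adrenal and gonadal markers were listed because those glands make the substrates of these enzymes. Of 14, 12 were measured, 9 of them below all array medians, and 0 passed. Star, which carries cholesterol into mitochondria of steroid-making cells, was 5.63, 5.50, 5.53 and 5.43 in deleted livers and 5.68, 5.53, 6.90 and 5.52 in controls. Control 3 stood alone, as it did for Cyp11b1, which makes corticosterone in the adrenal cortex, at 6.18 against 4.94 to 5.14 on the other 7 arrays. Control 3 also had the highest value of Cyp11a1 (6.22), Cyp21a1 (6.83) and Hsd3b1 (4.89). Among the controls it was the highest for 7 of the 12 markers and the lowest, ties included, for 2. Without control 3 the fold changes of Hsd3b5 and Akr1c6 were −0.47 and −0.28.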

How the data were processed

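RNA of 8 liver samples (4 Hmgb1 deleted, 4 floxed control) was measured on 1 Affymetrix Mouse Gene 1.0 ST array each. The authors processed them with RMA (background correction, normalization between arrays, summary of probes), per the submitters' processing notes, and deposited log2 intensities to 2 decimals. No version of RMA and no genome build were found in the labels.

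Of 35556 probe sets, GEO's annotation gave 1 symbol to 21789, several to 1621 and none to 12146. Each of 19938 genes was represented by its single-symbol probe set with the highest mean over the 8 arrays (999 genes had more than 1). No dim probe set was left out. The gene IDs of 21698 single-symbol probe sets were found in RefSeq's GRCm38.p6 table, and 0 symbols were updated. limma 3.58.1 in R 4.3.3 (lmFit, eBayes, 2-sided, no covariate) compared the groups, with Benjamini-Hochberg adjustment over all genes and a threshold of 0.05. Single genes were also compared by an exact permutation test over the 8 arrays. Promoter sequences came from RefSeq (GRCm38.p6), and 9 of 10 enzymes matched. Arrays give no read depth, so their number limits the precision. The scripts were tested on simulated data. Tables of sequences and figures used Python 3.11.15 and matplotlib 3.10.9.

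The enzymes and lists were chosen with earlier results of these data known. The rule for named genes took all enzymes, Hmgb1, from each steroid list the genes past the threshold or otherwise up to 4 with the smallest p, up to 3 per marker list with Alb, and the 5 genes nearest to an enzyme with a range of at least 1 log2 unit. Cyp7a1, Cyp11b1 and Cyp21a1 fall outside it and were chosen after their values were seen. The 17 alternatives were leaving out each array, leaving out dim genes, testing every probe set, averaging a gene's probe sets, repeating quantile normalization, centring arrays, a variance trend, a robust prior, array weights, and replicate numbers as a block.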

Additional observations from a re-analysis of the deposited data

Results flagged for a closer look

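In each group of 4 arrays, a lowest or highest value was marked when its gap to the nearest other value, over the group's whole range, was above Dixon's critical value at a confidence level of 95%. Of 120 groups of named genes, 14 values were marked. Of these, 4 belong to genes named only for their likeness to Hsd3b2. Without the 5 genes so named, 10 values were marked in 110 groups, where chance gives about 5.5, and 4 of the 10 lay on floxed control 1. Among the enzymes it was Hsd3b2 alone, at 7.88 on control 1 against 8.59 to 8.63 on the other controls.

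On control 1, 4 of the 5 genes nearest to Hsd3b2 were marked as well, which their choice for that profile fixed: Tcea3 (8.97, others 9.63 to 9.70), Ces1e (9.95, others 10.48 to 10.58), Tspan33 (7.44, others 8.09) and Tuba1a (7.33, others 7.78 to 7.83). The complement gene C6, a male-biased gene, was 9.70 on control 1 against 11.16 to 11.40. Hsd17b11 was 11.22 there against 11.48 to 11.53, and the hepatocyte marker Itih2 was 12.29 against 12.38 to 12.39.

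On control 3, Star was 6.90 against 5.52 to 5.68 on the other controls, and Hsd3b1, the adrenal and gonadal 3β form, was 4.89 against 4.27 to 4.37. Among deleted livers, Alb was 13.26 on deleted 4 against 13.93 to 14.03, and Hsd17b11 was 11.40 on deleted 2 against 11.04 to 11.10. On deleted 1, Hsd3b6 was 5.66 against 5.48 to 5.49, and the stellate cell marker Rgs5 was 7.76 against 7.98 to 8.01.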

How the results depend on the processing

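The median fold change of the 9 enzymes stayed below 0 under all 17 alternatives, between −0.13 and −0.011. The count of enzymes past the threshold was 2 with array weights (Hsd3b5 and Akr1c6) and 0 to 1 with single arrays left out, the 1 being Hsd3b5 without control 1, and it was 0 otherwise. The count of all genes, 138, was 264 with quantile normalization again (153 higher, 111 lower), 72 with centred arrays (33 higher, 39 lower), 526 with array weights (212 higher, 314 lower) and 37 to 321 with single arrays left out. It was 37 without deleted 4, 53 without deleted 3, 67 without deleted 2, 321 without control 1 (90 higher, 231 lower), 82 without control 2, 71 without control 3 and 42 without control 4. Signs turned for Hsd11b1 (0.018) and Alb (0.00047) with quantile normalization again, for Hsd17b6 without deleted 3 (0.070, the others down to −0.24) and for Ces1e without control 1 (−0.045, the others up to 0.165). The cause was not tested. Same-numbered arrays deviated with correlations of 0.447, 0.065, −0.081 and 0.422. The same-numbered control was the best match for deleted 1 and deleted 4, and another control was for deleted 2 and deleted 3. These values do not settle whether arrays were paired. No label says what the number marks, so it was not taken as a pairing. With it as a replicate block, 325 genes passed (162 higher, 163 lower), none of them among the 9 enzymes, and Hsd3b5 kept −0.49 (adjusted p = 0.192), while Nr3c2 passed (adjusted p = 0.0391). Array signal over background was not analysed here.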
